A study of Bos taurus with 17 samples.

Results

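The ATF4 amino acid response is described here through 10 bovine genes, TRIB3, CHAC1, STC2, CTH, ASNS, ATF4, DDIT3, PSAT1, PHGDH and NUPR1, taken by their symbol from a table of 12894 genes. Each symbol was held by 1 row. The RNA came from umbilical cord mesenchymal stem cells, which are primary stromal cells, grown for a study of cultivated meat on plastic or on cellulose scaffolds. Plastic cultures were sampled at day 0, a day after seeding and before the differentiation medium (3 libraries), and at day 3 (3 libraries) and day 21 (2 libraries) in a myogenic medium. That medium had less serum than the growth medium and held dexamethasone, ascorbic acid phosphate, vascular endothelial growth factor, insulin-like growth factor and fibroblast growth factor. Cells on scaffolds were sampled at day 21, either with the growth factors bound to the scaffold and absent from the medium (smart scaffold, 3 libraries) or with the factors in the medium (media scaffold, 4 libraries). Day 0 and the later days therefore differ in medium as well as in time, and these cannot be told apart. Libraries of 1 group are biological replicates by the design text, which does not say whether they came from separate animals, so p-values measure the spread between these libraries.

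ATF4 is a transcription factor of the bZIP class. When amino acids run short, the endoplasmic reticulum is stressed or heme is lacking, kinases phosphorylate the initiation factor eIF2, bulk translation slows, and the ATF4 message is translated more. ATF4 protein then binds genes for amino acid synthesis, transport and redox balance, together with genes that dampen or end the response. The ATF4 message is thus a poor guide to ATF4 protein, which was not measured here.

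Values are normalized reads, which are 3′ end read counts divided by 1 scaling factor per library. Reads per library ran from 2197356 to 15483745, and the 2 plastic libraries of day 21 were among the shallower ones (2197356 and 5264578). The lowest correlation between libraries of 1 group was 0.961, between those same 2 libraries. All 10 genes passed the minimum mean of 5 normalized reads over the 15 libraries. STC2 was the only one with a group mean under 5. A gene was called, and is said to have risen or fallen, at an adjusted p under 0.05 in limma with a log2 fold change of 1 or more in size. The 14 mesenchymal markers listed had means from 13.6 (PDGFRA) to 77031 (VIM) at day 0. Among them ENG had 663 ± 67.1, NT5E 298 ± 3.22 and THY1 401 ± 30.1 (SD, n = 3). Of 8 blood and immune markers listed, 5 are in the table and summed to 26.8 to 30.2 at day 0, with CD68 at 16.3, CSF1R at 9.39 and CD34 at 0 in every library. In bulk RNA, fewer cells of a type and less RNA per cell cannot be told apart.

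**Figure D1:**
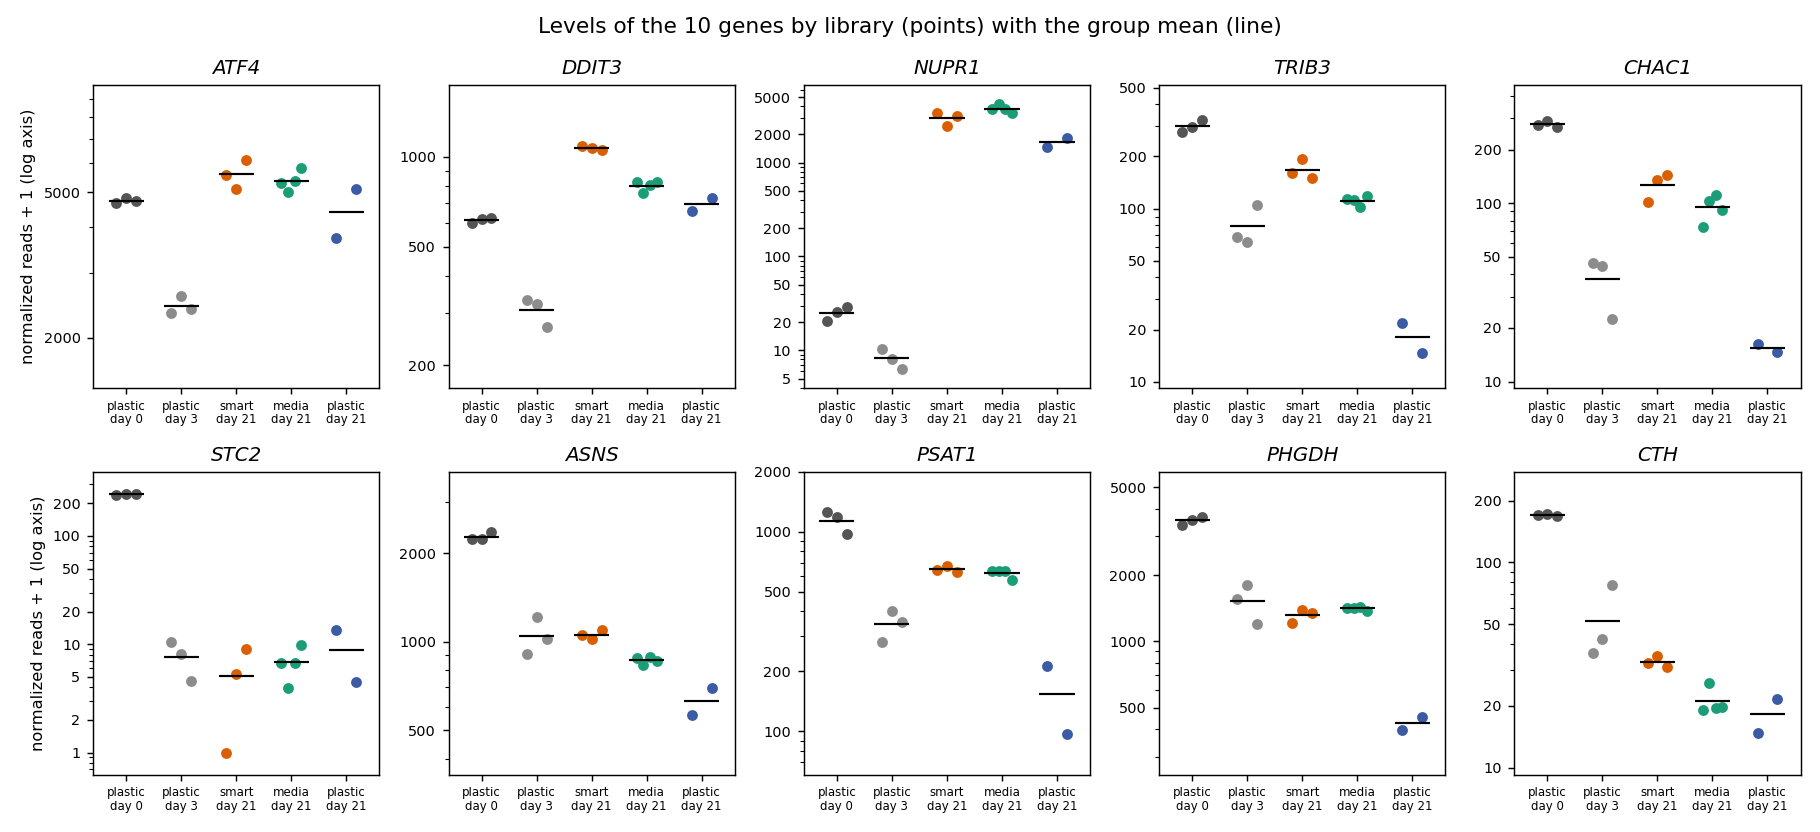
Normalized reads + 1 (log axis) of the 10 genes in each library (points), with the group mean (dash), for plastic day 0, plastic day 3, smart scaffold day 21, media scaffold day 21 and plastic day 21. TRIB3 averaged 17.2 on plastic at day 21, below every other group, and NUPR1 reached 1639 or more in all 3 groups of day 21.

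Within 3 days on plastic most of the response genes fell. Of the 10 genes, 9 fell and 0 rose at day 3 against day 0, and for all 10 the day 3 libraries lay outside the range of the day 0 libraries. Over all 10960 tested genes 3.73% fell and 6.27% rose, and the libraries did not overlap for 44.3%. The 10 genes were chosen with earlier results of these data known. Their counts beside those of all genes, here and below, are therefore a description and not a test. The median log2 fold change was -1.67 over the 10 genes and -0.02 over all tested genes. The summed level of the 6 smooth muscle markers was 18967 to 22105 at day 3, against 38320 to 42102 at day 0. The blood and immune marker sum was 28.6 to 79.5, against 26.8 to 30.2, and of 4 tested markers 2 rose and 0 fell. VWF, the 1 endothelial marker tested, rose to 22.8, against 5.84 at day 0. Of 14 mesenchymal markers 2 rose and 1 fell, and of 3 cartilage and fat markers 0 rose and 1 fell. The part of these marker levels in the results was not tested.

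TRIB3, CHAC1, DDIT3 and NUPR1 fell at day 3, and ATF4 just missed the size threshold. TRIB3, a pseudokinase that ATF4 induces and that dampens the response, had 67.4, 63.4 and 104 normalized reads at day 3, against 277, 295 and 323 at day 0. CHAC1, which degrades glutathione, had 45.1, 43.3 and 21.4 at day 3, against 276, 287 and 266 at day 0. Every day 3 library lay below every day 0 library for both genes, with log2 fold changes of -1.95 (SE 0.19, adjusted p = 5.19e-07 in limma) for TRIB3 and -2.95 (SE 0.24, adjusted p = 6.74e-08 in limma) for CHAC1. DDIT3, the bZIP factor CHOP that acts in prolonged stress, had 331, 320 and 268 at day 3, against 599, 618 and 623 at day 0. Its log2 fold change (95% interval -1.20 to -0.81) passed the size threshold by a narrow margin, and the call ended under 7 of 16 other settings, among them the same total (-0.94), DESeq2 (-0.97) and leaving out replicate 3 of day 3 (-0.91). ATF4 itself had 2329, 2601 and 2392 at day 3, against 4665, 4815 and 4729 at day 0, a log2 fold change of -0.96 (SE 0.11, adjusted p = 3.39e-06 in limma) that stayed just under the size threshold. ATF4 became a call under quantile normalization, at -1.04, and without replicate 2 of day 3. NUPR1, a small chromatin-associated stress protein, had 9.43, 7.04 and 5.36 at day 3, against 19.7, 24.5 and 28.0 at day 0, a log2 fold change of -1.62 (SE 0.17).

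Among the enzymes, PSAT1 and PHGDH carry out consecutive early steps of serine synthesis, ASNS makes asparagine, and CTH makes cysteine from cystathionine. PSAT1 had 279, 398 and 353 at day 3, against 1252, 1186 and 974 at day 0, a log2 fold change of -1.73 (SE 0.20). PHGDH had 1553, 1805 and 1192 at day 3, against 3392, 3574 and 3683 at day 0, a log2 fold change of -1.25 (SE 0.12). For both enzymes every day 3 library lay below every day 0 library. ASNS had 911, 1212 and 1021 at day 3, against 2235, 2235 and 2368 at day 0, a log2 fold change of -1.13 (SE 0.10). CTH had 35.0, 41.3 and 76.8 at day 3, against 169, 172 and 168 at day 0, and its day 3 libraries differed more among themselves than its day 0 libraries did. The largest change of the 10 was that of STC2, a secreted glycoprotein of the stanniocalcin family, with 9.43, 7.04 and 3.57 at day 3, against 240, 244 and 241 at day 0. Its log2 fold change was -5.06 (SE 0.62, adjusted p = 8.32e-06 in limma), and it rests on 23 reads in all at day 3, against 1410 at day 0.

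**Figure D2:**
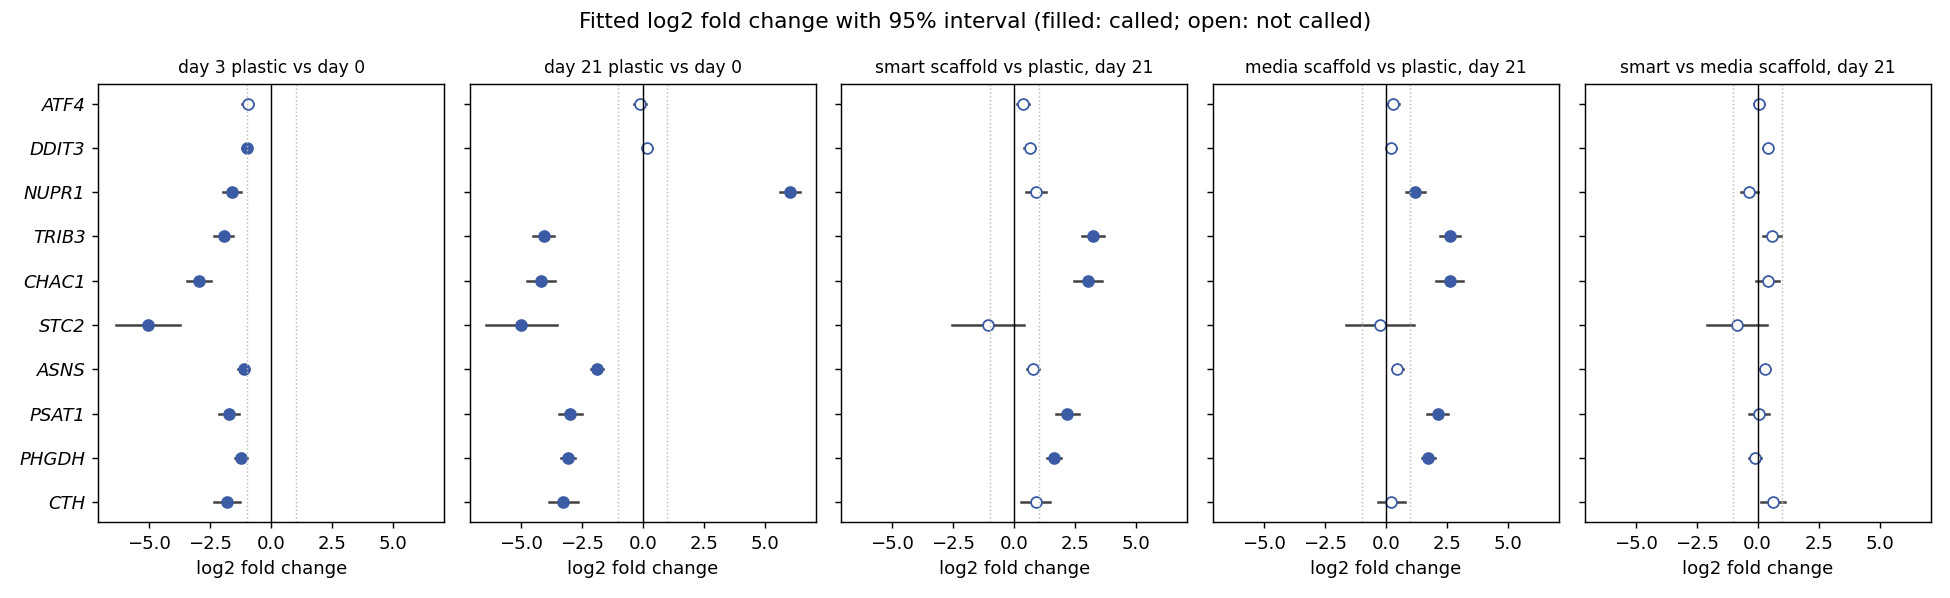
Log2 fold change of each of the 10 genes (limma, log2 of normalized reads + 1) in 5 comparisons (panels), with 95% confidence intervals. Filled points were called and open points were not. NUPR1 stands at 6.04 on plastic at day 21 against day 0, on the other side of 0 from TRIB3 at -4.06 and CHAC1 at -4.17.

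On plastic at day 21 the enzymes, TRIB3, CHAC1 and STC2 were low, NUPR1 was high, and ATF4 and DDIT3 were not called. Against day 0, 7 of the 10 fell and 1 rose, where 24.1% of all tested genes fell and 21.2% rose. The libraries did not overlap for 9 of the 10, where they did not for 79.7% of all tested genes. The median log2 fold change was -3.02 over the 10 genes and -0.06 over all tested genes. Comparisons against day 0 share the same 3 control libraries. The summed level of 5 blood and immune markers of 8 listed was 130 to 182 in the 2 plastic libraries of day 21, against 26.8 to 30.2 at day 0. The smooth muscle markers summed to 98587 to 114547 on plastic at day 21, against 38320 to 42102 at day 0, and 4 of the 6 rose, among them MYH11 at 2469, against 19.8 at day 0. Of 3 tested skeletal muscle markers 2 rose and 0 fell, with DES at 13070, against 993 at day 0. Of 14 mesenchymal markers 6 rose and 2 fell. The endothelial marker VWF rose to 29.9 ± 11.1 on plastic at day 21 (SD, n = 2), against 5.84 ± 1.17 at day 0 (SD, n = 3). The part of these marker levels in the results was not tested.

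TRIB3 had 20.7 and 13.7 normalized reads on plastic at day 21, against 277, 295 and 323 at day 0, so that its mean was 17.3 times lower. CHAC1 had 15.2 and 13.7 on plastic at day 21, with a mean 19.1 times below that of day 0. On plastic at day 21 TRIB3 rests on 19 reads in all and CHAC1 on 15. Both genes were lower than at day 3 as well, by log2 fold changes of -2.11 (SE 0.21) for TRIB3 and -1.21 (SE 0.27) for CHAC1. Of the serine enzymes, PHGDH had 396 and 450 on plastic at day 21, a log2 fold change of -3.07 (SE 0.13, adjusted p = 3.04e-12 in limma) against day 0. PSAT1 had 211 and 96.2, a log2 fold change of -2.98 (SE 0.22) against day 0, and its 2 libraries differed from each other by more than those of PHGDH. CTH had 13.8 and 20.6, and ASNS had 564 and 694, with log2 fold changes of -3.25 (SE 0.28) and -1.86 (SE 0.12) against day 0. The CTH values come from 16 reads in all. STC2 had 12.4 and 3.44, a range that overlaps with day 3, with a log2 fold change of 0.09 between the 2 days (95% interval -1.38 to 1.56).

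ATF4 and DDIT3 took another course. ATF4 had 3736 and 5099 on plastic at day 21, and these lie on either side of the day 0 libraries. Its log2 fold change against day 0 was -0.12 (95% interval -0.37 to 0.14, adjusted p = 0.398 in limma). DDIT3 had 657 and 728 on plastic at day 21, against 599, 618 and 623 at day 0, a log2 fold change of 0.17 (95% interval -0.05 to 0.40, adjusted p = 0.151 in limma). Against day 3, DDIT3 rose by a log2 fold change of 1.18 (SE 0.11, adjusted p = 4.56e-08 in limma), which was 0.85 after rescaling the libraries to the same total. ATF4 was higher than at day 3 by 0.84 (SE 0.12), under the size threshold, and reached 1.06 without replicate 1 of plastic day 21.

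NUPR1 rose far above both earlier days. It had 1453 and 1825 normalized reads on plastic at day 21, against 19.7, 24.5 and 28.0 at day 0. The mean was 68.1 times that of day 0, with a log2 fold change of 6.04 (SE 0.19, adjusted p = 6.75e-14 in limma), and 225 times that of day 3. In the step between day 3 and day 21, 5 of the 10 genes fell and 2 rose, where 19.4% and 15.5% of all tested genes did. The libraries did not overlap for 9 of the 10 in that step, against 65.4% of all tested genes. PHGDH fell by 1.82 and CTH fell by 1.46 on the log2 scale, and ASNS had a log2 fold change of -0.73 that was not called and was -1.06 after rescaling to the same total. The call of PSAT1 in that step ended without replicate 2 of plastic day 21, with a log2 fold change of -0.68 against -1.25 with it.

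**Figure D3:**
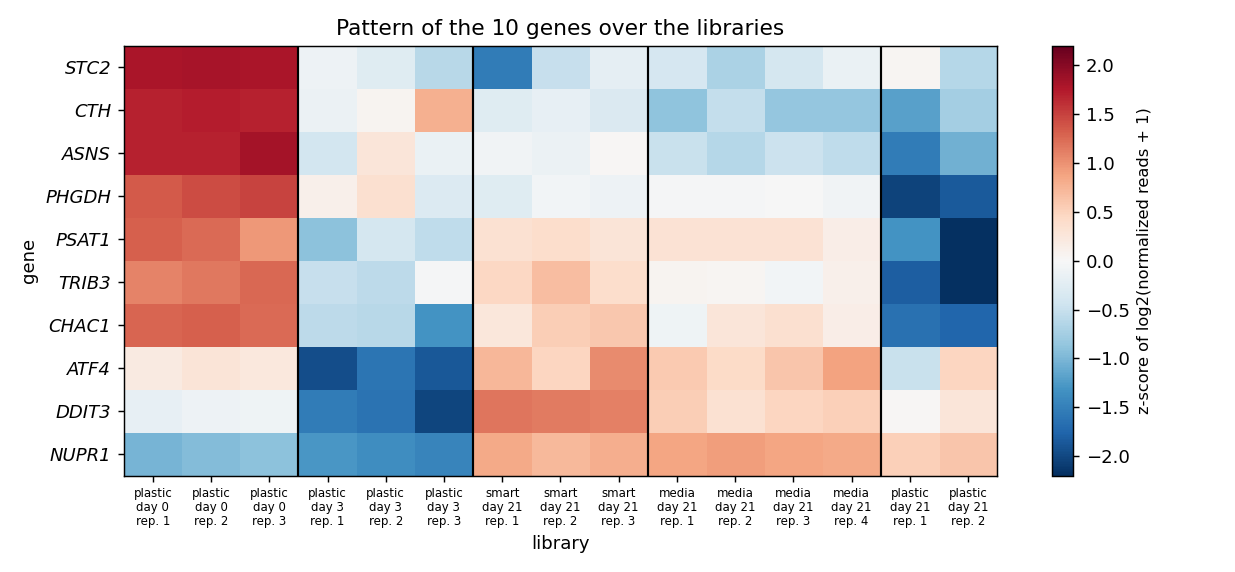
Z-scores of log2(normalized reads + 1) for the 10 genes (rows) in the 15 libraries (columns), each gene scaled over all libraries. The day 0 libraries are high for every gene but DDIT3, ATF4 and NUPR1, and the 2 plastic libraries of day 21 are low for TRIB3, CHAC1, PSAT1, PHGDH, ASNS and CTH.

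Cells on both scaffolds at day 21 had more RNA of TRIB3, CHAC1 and the serine enzymes than cells on plastic at the same day. On the smart scaffold 4 of the 10 genes rose against plastic and 0 fell, where 21.4% of all tested genes rose and 16.0% fell. On the media scaffold 5 rose and 0 fell, where 20.8% of all tested genes rose and 14.6% fell. The libraries did not overlap with plastic for 8 of the 10 on the smart scaffold, where 73.1% of all tested genes did not, and for 7 of the 10 on the media scaffold, where 71.2% did not. These shares without overlap are close to those of all genes. The median log2 fold change was 0.87 on the smart scaffold and 0.84 on the media scaffold, against 0.01 and 0.02 over all tested genes. Both comparisons share the 2 plastic libraries. The blood and immune marker sum was 24.1 to 30.4 on the smart scaffold and 22.2 to 30.8 on the media scaffold, against 130 to 182 on plastic. The 3 cartilage and fat markers in the table, of 6 listed, summed to 200 to 304 on the smart scaffold and 244 to 512 on the media scaffold, against 17.2 to 56.6 on plastic, and all 3 rose on both. The smooth muscle markers summed to 89193 to 102104 on the smart scaffold and 68181 to 83504 on the media scaffold, against 98587 to 114547 on plastic, with 0 of 6 called on the smart scaffold and 2 lower on the media scaffold. Of 3 tested skeletal muscle markers 0 rose and 1 fell on each scaffold. Of 14 mesenchymal markers 5 rose and 2 fell on the smart scaffold, and 6 rose and 2 fell on the media scaffold. The part of these marker levels in the results was not tested.

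TRIB3 had 158, 193 and 149 normalized reads on the smart scaffold and 112, 110, 101 and 116 on the media scaffold, against 20.7 and 13.7 on plastic at day 21. Every scaffold library lay above both plastic ones, with log2 fold changes of 3.22 (SE 0.21, adjusted p = 1.26e-09 in limma) on the smart scaffold and 2.63 (SE 0.20, adjusted p = 8.32e-09 in limma) on the media scaffold. CHAC1 had 101, 134 and 143 on the smart scaffold and 72.2, 102, 111 and 90.8 on the media scaffold, against 15.2 and 13.7 on plastic. Its log2 fold changes were 3.02 (SE 0.27) and 2.60 (SE 0.25), in that order of scaffolds. The plastic values rest on 19 reads in all for TRIB3 and 15 for CHAC1. PSAT1 had 647, 671 and 626 on the smart scaffold and 639, 640, 636 and 571 on the media scaffold, against 211 and 96.2 on plastic. The scaffold libraries of PSAT1 lay close together, and the plastic ones far below them. PHGDH had 1213, 1394 and 1341 on the smart scaffold and 1421, 1410, 1433 and 1377 on the media scaffold, against 396 and 450 on plastic, with log2 fold changes of 1.64 (SE 0.13) and 1.74 (SE 0.13).

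NUPR1 was higher still on the scaffolds than on plastic. It had 3402, 2473 and 3117 on the smart scaffold and 3721, 4208, 3741 and 3415 on the media scaffold, against 1453 and 1825 on plastic. The log2 fold change was 1.21 (SE 0.18, adjusted p = 2.25e-05 in limma) on the media scaffold, which was called, and 0.87 (SE 0.19, adjusted p = 0.000873 in limma) on the smart scaffold, which was not. DDIT3 had 1090, 1070 and 1054 on the smart scaffold and 823, 755, 802 and 820 on the media scaffold, against 657 and 728 on plastic, and none of these libraries overlap between groups. Its log2 fold changes of 0.63 and 0.21 stayed under the size threshold. ATF4 had 5563, 5097 and 6135 on the smart scaffold and 5285, 5012, 5345 and 5823 on the media scaffold, ranges that overlap with 3736 and 5099 on plastic. The log2 fold changes of ATF4 were 0.35 (95% interval 0.10 to 0.61) and 0.30 (95% interval 0.05 to 0.54). These intervals use 1 spread shared by all groups, and ATF4 varied most between the plastic libraries of day 21 (SD 964, n = 2). Under the other settings its log2 fold changes ran from 0.13 to 0.58 and from 0.07 to 0.52, in that order of scaffolds.

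ASNS had 1050, 1025 and 1094 on the smart scaffold and 882, 834, 888 and 857 on the media scaffold, against 564 and 694 on plastic. Its libraries did not overlap with plastic, though log2 fold changes of 0.75 and 0.47 were not called. CTH had 31.4, 33.8 and 29.9 on the smart scaffold and 18.1, 24.9, 18.6 and 18.8 on the media scaffold, against 13.8 and 20.6 on plastic. Its media scaffold libraries overlap with plastic and its smart scaffold libraries lie above it. The log2 fold change of CTH was 0.87 on the smart scaffold and became a call without replicate 2 of plastic day 21 (1.14) and in edgeR (1.04). STC2 had 0, 4.34 and 8.05 on the smart scaffold and 5.74, 2.98, 5.67 and 8.88 on the media scaffold, against 12.4 and 3.44 on plastic. These values come from 12, 26 and 10 reads in the 3 groups, and the groups overlap.

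Against plastic at day 0, CHAC1, STC2, CTH, ASNS and PHGDH fell on both scaffolds and NUPR1 rose. These comparisons differ in surface, medium and time at once, and these cannot be told apart. On the smart scaffold 5 fell and 1 rose, where 14.1% of all tested genes fell and 16.5% rose. On the media scaffold 6 fell and 1 rose, where 14.9% fell and 17.5% rose. For all 10 genes the libraries did not overlap with day 0 in either comparison, where 72.9% and 72.4% of all tested genes did not. Both comparisons share the 3 day 0 libraries. TRIB3 averaged 167 ± 22.8 on the smart scaffold (SD, n = 3) and 298 ± 22.9 at day 0 (SD, n = 3), a log2 fold change of -0.84 that was not called, and 110 ± 6.45 on the media scaffold (SD, n = 4), which was called at -1.43. PSAT1 averaged 648 ± 22.1 on the smart scaffold and 621 ± 33.9 on the media scaffold, against 1137 ± 145 at day 0, with log2 fold changes of -0.80 and -0.86 that were not called. After rescaling to the same total, which shifted the all-gene median by -0.22 on the smart and -0.25 on the media scaffold, these 2 PSAT1 values were -1.03 and -1.11, and TRIB3 on the smart scaffold was -1.07, so that all 3 became calls. CHAC1 had log2 fold changes of -1.14 on the smart scaffold, which was -0.99 and no call without its replicate 1, and -1.56 on the media scaffold. Those of CTH were -2.38 and -3.03, and those of STC2 were -6.06 and -5.23, in that order of scaffolds. ASNS had -1.11 and -1.40, and PHGDH had -1.43 and -1.33. DDIT3 had 0.80 and 0.38 and ATF4 had 0.24 and 0.18, all under the size threshold, and ATF4 turned to -0.13 and -0.16 under quantile normalization. NUPR1 averaged 124 times its day 0 level on the smart scaffold and 157 times on the media scaffold.

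Between the smart and the media scaffold, 0 of the 10 genes were called in limma, where 0.903% of all 10960 tested genes were, and 0 were called by edgeR or DESeq2. At an unadjusted p under 0.05, 4 of the 10 differed, namely DDIT3, TRIB3, CTH and ASNS, and 13.1% of all tested genes did. The libraries did not overlap for 5 of the 10, against 20.4% of all tested genes. DDIT3 was the 1 gene of the 10 with an adjusted p under 0.05, at a log2 fold change of 0.42 (95% interval 0.24 to 0.61, adjusted p = 0.0156 in limma), higher in all 3 smart scaffold libraries than in all 4 media scaffold libraries. The log2 fold change was 0.59 for TRIB3 (95% interval 0.22 to 0.96, adjusted p = 0.103 in limma), 0.64 for CTH (95% interval 0.15 to 1.14, adjusted p = 0.211) and 0.29 for ASNS (95% interval 0.08 to 0.49, adjusted p = 0.165). The intervals of the others include 0. They ran from -0.05 to 0.89 for CHAC1, from -0.68 to 0.00 for NUPR1, from -0.33 to 0.46 for PSAT1, from -0.34 to 0.13 for PHGDH and from -0.15 to 0.27 for ATF4. The interval of STC2, -2.06 to 0.40, leaves a several-fold difference possible.

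Ordered by group mean, TRIB3, CHAC1 and PSAT1 were highest at day 0 and lowest on plastic at day 21, and the smart and media scaffold libraries overlapped for CHAC1 and PSAT1. TRIB3 on the media scaffold overlapped with day 3. PHGDH followed the order day 0, day 3, media scaffold, smart scaffold and plastic at day 21, with overlap between day 3 and the media scaffold and between the scaffolds. ATF4 was lowest at day 3, and its libraries overlapped between the 2 scaffolds, and between day 0 and plastic at day 21. For DDIT3 and NUPR1 no neighbouring groups overlapped.

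The family relatives did not all follow the members. STC1, the paralog of STC2, averaged 37.0 ± 9.69 at day 3 (SD, n = 3) and 1.56 ± 0.83 at day 0 (SD, n = 3), a rise of 3.92 on the log2 scale, where STC2 fell. On plastic at day 21 STC1 averaged 75.5, and it fell on both scaffolds against plastic, to 0.38 on the smart scaffold and 2.95 on the media scaffold. The smart scaffold value rests on 1 read against 87 on plastic, a ratio of plastic over smart scaffold of 225 with a 95% counting interval of 39.4 to 8.99e+03. TRIB1 fell at day 3 (20.5 ± 2.28, against 84.3 ± 8.92 at day 0) and on plastic at day 21 (9.28), where its 2 libraries had 1.38 and 17.2. Its higher level on the smart scaffold (log2 fold change 2.28) and on the media scaffold (1.88) against plastic lost its call without replicate 1 of plastic day 21, at 0.81 and 0.42. TRIB2 rose on plastic at day 21 (76.1 ± 15.3, against 37.1 ± 3.26 at day 0), and that call ended under 4 settings, at 0.75 to 0.95. CHAC2, which also degrades glutathione, had a log2 fold change of -0.01 at day 3 and rose on the smart scaffold against plastic (83.8 ± 3.94, against 36.8 ± 1.36), a call that ended under quantile normalization at 0.97. ATF5, a bZIP factor close to ATF4, fell at day 3 (718 ± 127, against 1660 ± 63.5 at day 0) and rose between day 3 and plastic day 21, to 3059 ± 198. NUPR2 was not called in any of the 8 comparisons, with log2 fold changes from -0.81 to 0.72.

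**Figure D4:**
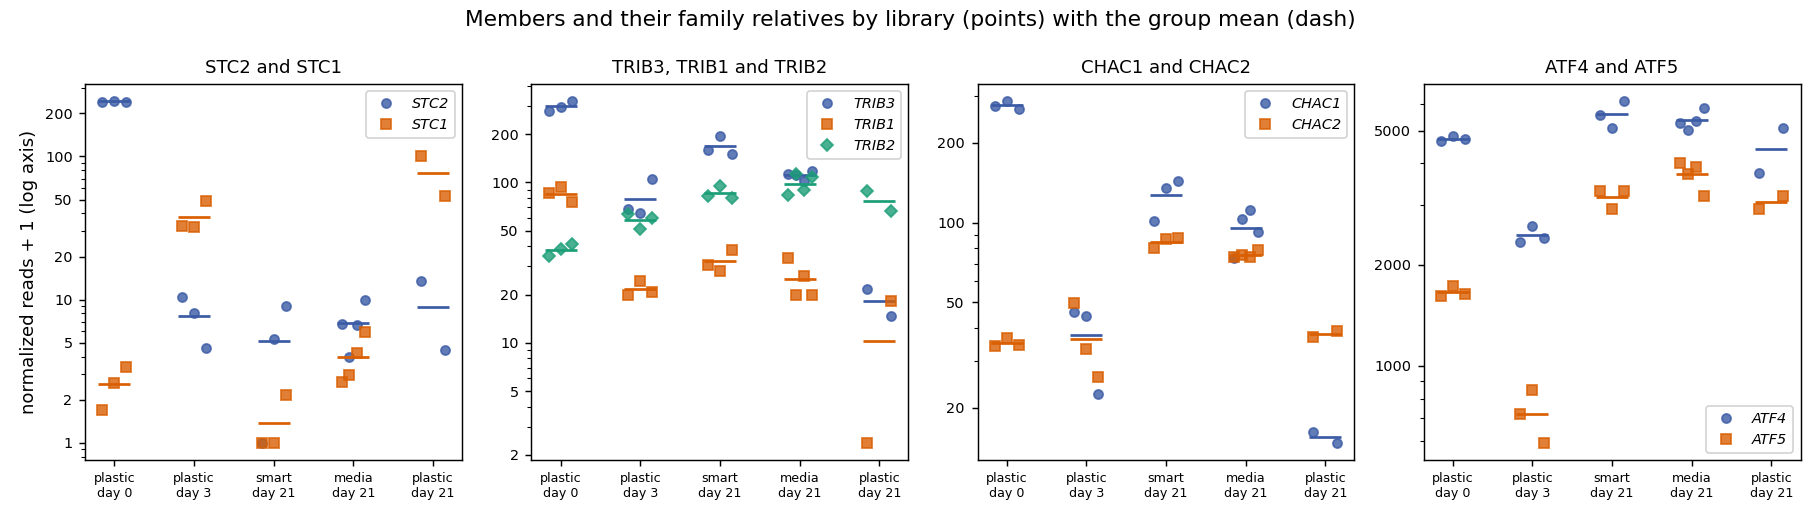
Normalized reads + 1 (log axis) of STC2, TRIB3, CHAC1 and ATF4 beside their relatives in each library (points), with the group mean (dash). STC1 averaged 37.0 at day 3 and 75.5 on plastic at day 21, where STC2 averaged 6.68 and 7.93.

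Other genes tied to the response moved in part with the 10. At day 3, where 3.73% of all tested genes fell and 6.27% rose, of 10 tested amino acid transporters 4 fell and 1 rose, with a median log2 fold change of -0.33. SLC7A5, the light chain of a carrier of large neutral amino acids, averaged 343 ± 79.7 at day 3 and 1066 ± 20.9 at day 0, and SLC3A2, its heavy chain, 397 ± 24.2 and 1155 ± 28.7. Of 9 partner and related bZIP factors 5 fell and 1 rose, among them ATF3, a stress-induced repressor (48.2 ± 3.66 at day 3 and 179 ± 3.03 at day 0), while CEBPD rose (1455 ± 318 at day 3 and 521 ± 65.8 at day 0). Of 13 serine, glycine and one-carbon enzymes beyond PSAT1 and PHGDH 2 fell and 1 rose, with SHMT2, the mitochondrial serine hydroxymethyltransferase, at 1949 ± 344 at day 3 and 4683 ± 161 at day 0. Of 19 aminoacyl tRNA synthetases and related genes 1 fell and 0 rose, and of 20 endoplasmic reticulum chaperones 1 fell and 0 rose, both near the share of all genes that fell. That chaperone was HSPA5, whose call ended under the same total and without replicate 2 of day 3. Of 17 genes of the eIF2 kinases and eIF2 machinery 0 fell and 0 rose at day 3. Of 10 genes of glutathione synthesis and turnover 0 fell and 1 rose. Of 14 other amino acid synthesis enzymes 1 fell and 1 rose, and of 10 stress inhibitors and secreted responders 2 fell and 2 rose.

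On plastic at day 21 against day 0, 8 of 13 serine and one-carbon enzymes fell and 2 rose, and 6 of 10 transporters fell and 1 rose, where 24.1% of all tested genes fell and 21.2% rose. The median log2 fold changes were -1.45 and -1.16. PSPH, the last enzyme of serine synthesis, averaged 161 ± 23.8 on plastic at day 21 (SD, n = 2) and 1084 ± 14.2 at day 0 (SD, n = 3). SLC7A5 averaged 85.0 ± 30.4 and 1066 ± 20.9 in the same groups. Of 20 chaperones 11 fell and 1 rose, with MANF, a secreted protein of the endoplasmic reticulum, at a log2 fold change of -2.27, and the median of the list was -1.07. Of 19 synthetases 7 fell and 2 rose, and WARS, the tryptophan enzyme that interferon also induces, rose to 7503 ± 1580 on plastic at day 21, against 2741 ± 115 at day 0. Of 17 genes of the eIF2 kinases and eIF2 machinery 5 fell and 0 rose, led by the eIF2 subunit EIF2S3 at 26.9 ± 0.90, against 299 ± 1.06 at day 0. The share of that list that fell is near that of all genes.

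Against plastic at day 21, some genes of each of these lists rose on both scaffolds, where 21.4% of all tested genes rose on the smart and 20.8% on the media scaffold. On each scaffold 2 of 9 bZIP factors, 5 of 19 synthetases and 5 of 17 eIF2 genes rose, near the share of all genes. In the same lists 0 bZIP factors and 1 eIF2 gene fell on each scaffold, and 1 synthetase fell on the smart and 2 on the media scaffold. Of 13 serine and one-carbon enzymes 5 rose on each scaffold, and 3 fell on the smart and 2 on the media scaffold. On the smart scaffold 5 of 10 transporters rose and 2 fell, and on the media scaffold 4 rose and 1 fell, with median log2 fold changes of 0.79 and 0.55. Under the other settings the transporters that fell numbered 0 to 2 on the smart and 0 to 1 on the media scaffold. SLC38A2, a neutral amino acid carrier that starvation induces, averaged 1036 ± 38.8 on the smart scaffold and 910 ± 56.5 on the media scaffold, against 149 ± 31.7 on plastic. ATF3 averaged 206 ± 5.73 on the smart scaffold and 127 ± 9.79 on the media scaffold, against 24.5 ± 0.56 on plastic. VLDLR, a lipoprotein receptor, had log2 fold changes of 4.57 and 4.04, and EIF2S3 of 3.28 and 3.18, in that order of scaffolds. Of 20 chaperones 7 rose on the smart scaffold and 5 on the media scaffold, and 0 fell on either, with DNAJB9 at 279 ± 13.8 and 249 ± 8.61, against 40.6 ± 8.88 on plastic. On the media scaffold that count is near the share of all genes. PSPH had log2 fold changes of 1.54 and 1.53. Among the genes that fell were WARS, with log2 fold changes of -1.83 and -1.89, and AMT, of the glycine cleavage system, with -4.02 and -3.63.

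**Figure D5:**
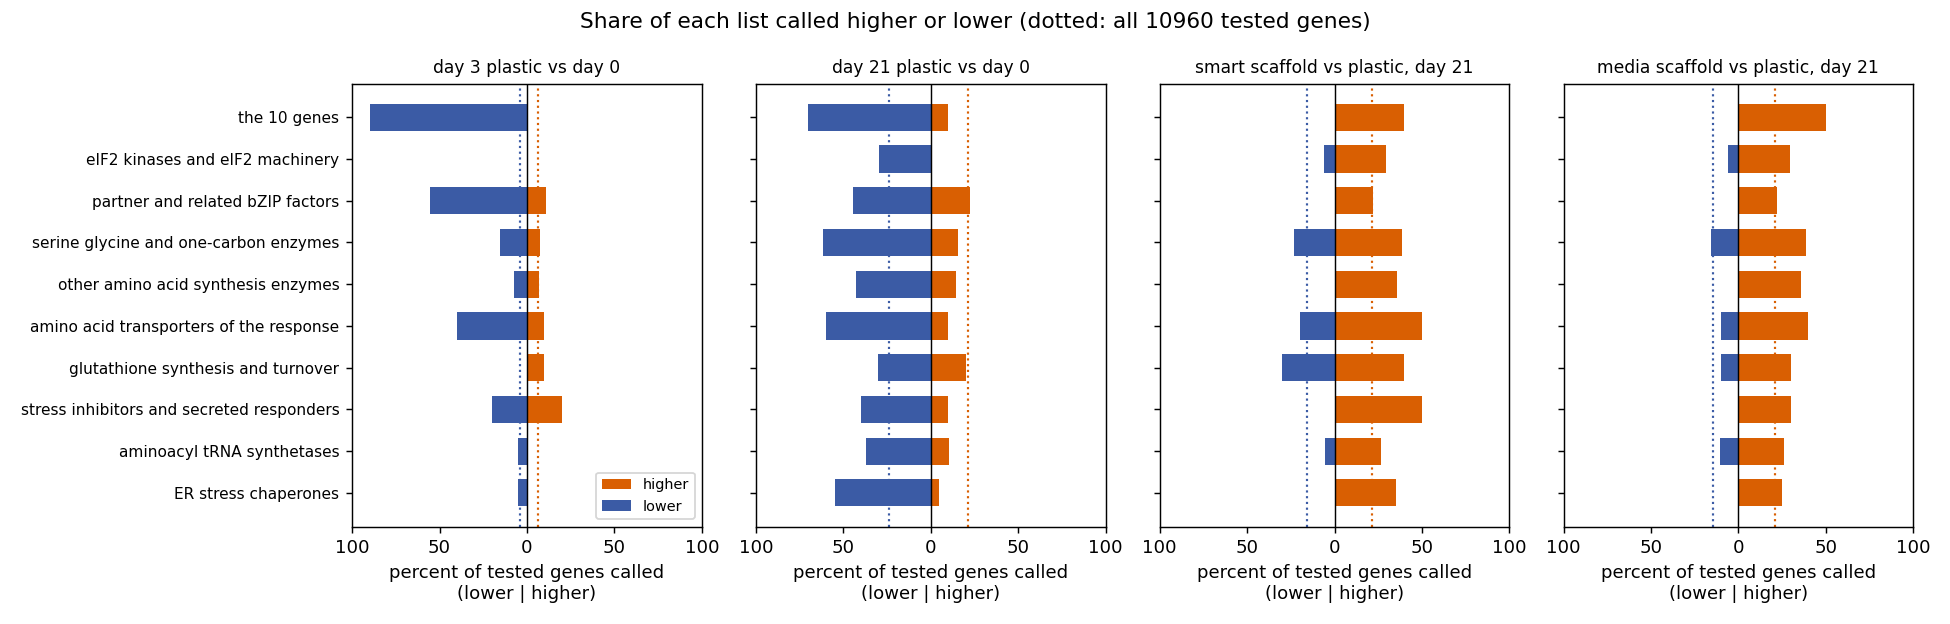
Percent of the tested genes of each list (rows) called higher (orange, to the right) or lower (blue, to the left) in 4 comparisons, with the percent of all 10960 tested genes as dotted lines. At day 3 the bar of the 10 genes stands for 9 that fell, where 3.73% of all tested genes fell.

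Outside all the lists, the genes whose levels over the 15 libraries were most like the mean z-score of the 10 were HTRA3, UFM1, LOXL2, SMAD6 and ARL14EP. Their Pearson correlations with it were 0.971, 0.963, 0.952, 0.950 and 0.950, as a description over libraries that fall into 5 groups and share the scaling. That mean does not stand for each of the 10 alike. CHAC1 correlated with it at 0.974, ATF4 at 0.570, DDIT3 at 0.432 and NUPR1 at -0.008. HTRA3, a secreted protease, averaged 2585 at day 0, 149 at day 3, 485 on the smart scaffold, 360 on the media scaffold and 48.5 on plastic at day 21. UFM1, a ubiquitin-like modifier, averaged 246, 79.0, 185, 148 and 53.7 in the same order.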

How the data were processed

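RNA was measured by MARS-seq, which reads 3′ ends. The deposited values are a normalized signal, for which the authors divided the counts of a library by its scaling factor. Per the submitters' processing notes, the tools were cutadapt, STAR, HTSeq and DESeq and the build was ARS-UCD1.2. Versions, the use of strand and of molecular identifiers, and the treatment of reads that match several loci are not given in the sources used here. Reads of overlapping genes and near-identical copies could not be told apart. The labels describe 17 samples in 6 groups, of which 15 in 5 groups were used. The names of 2 value columns matched no labelled sample, and the day 0 scaffold group is not analysed here.

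The fit used limma 3.58.1 in R 4.3.3 on log2(value + 1), with a variance trend and robust estimation, in 1 fit of 15 libraries with a mean per group. All groups share 1 estimate of the spread per gene, so an interval can be too narrow for a group whose libraries differ more. The log2(value + 1) scale understates changes of low genes. Genes with a mean of at least 5 were tested (10960, leaving out 1934). Tests were two-sided, with Benjamini-Hochberg adjustment within each comparison over all tested genes. Whole reads were recovered for 100% of values within 0.1, and edgeR 4.0.16 and DESeq2 1.42.0 on those reads were alternatives, with other pseudocounts, filters and scalings, a fit of the compared groups alone, a replicate block and each library left out. On simulated reads for 10960 genes, 94% to 100% of 3-fold changes were found over the comparisons, with 0 to 32 false calls. The changes were planted only in genes with a mean well above the minimum for testing, so that share does not cover genes near the minimum. False calls numbered 23 to 32 in each comparison that holds plastic day 21, and 0 or 1 in every other. Intervals from reads cover counting error only. The members and lists were chosen with earlier results of these data known. The rule for named genes took the 10 members in every comparison, the relatives at any value, and of each other list at most 4 called genes per comparison, by size of change among those whose libraries did not overlap, and the text takes examples of the relatives and lists. Synthetases are given by the older symbols of the table.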

Additional observations from a re-analysis of the deposited data

Results flagged for a closer look

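In the media scaffold group, the only one with 4 libraries, 2 of the 10 genes had 1 library apart from the others by Dixon's ratio, for which the 95% critical value is 0.829. CTH had a ratio of 0.897, with replicate 2 at 24.9 normalized reads and the others at 18.1 to 18.8. PSAT1 had a ratio of 0.943, with replicate 4 at 571 and the others at 636 to 640. Chance flags about 1 in 20 such groups. Without these libraries the log2 fold changes against plastic at day 21 were 0.12 for CTH, which was not called, and 2.15 for PSAT1, which was called.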

How the results depend on the processing

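For the 10 genes, 1270 fold changes were recomputed under the alternatives, of which 1237 kept their direction and their side of the threshold, 10 lost a call, 11 gained one and 12 changed sign, none of these 12 from a called value. Counts of called members and of all called genes stayed within 1.5 times under every setting that kept all libraries. With a library left out, the genes called between the smart and media scaffold numbered 53 to 87, against 99 with all libraries, with 53 without media scaffold replicate 2, 61 without its replicate 1 or 3 and 62 without smart scaffold replicate 2. Members called ranged from 8 to 10 at day 3 against day 0, from 6 to 8 on plastic day 21 against day 3, and from 4 to 6 on the smart scaffold against plastic.

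Rescaling to the same total shifted the all-gene median by -0.26 on plastic day 21 against day 0 and by -0.32 against day 3. Genes called higher and lower then numbered 1812 and 3276 on plastic day 21 against day 0 (2320 and 2636 before), 1148 and 3057 against day 3 (1700 and 2124), 1494 and 2271 on the media scaffold against day 0 (1913 and 1635) and 1420 and 2155 on the smart scaffold against day 0 (1808 and 1546). Signs turned under the same total for DDIT3 on plastic day 21 against day 0 (-0.09), STC2 on plastic day 21 against day 3 (-0.19) and ATF4 on the media scaffold against day 0 (-0.07). Under quantile normalization ATF4 turned on the media scaffold (-0.16) and on the smart scaffold (-0.13) against day 0. The cause was not tested.

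Leaving out 1 library at a time, the log2 fold change ran from -0.34 to 0.11 for ATF4 on plastic day 21 against day 0, from -0.71 to 0.89 for STC2 on plastic day 21 against day 3, from -1.05 to 0.55 for STC2 and from -0.05 to 0.50 for CTH on the media scaffold against plastic, and from -1.49 to 0.10 for STC2 and from -0.01 to 0.12 for ATF4 between the smart and media scaffold. STC2 has too few reads after day 0 for these comparisons to be read as more than a range.

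Over 26 pairs of libraries with the same replicate number, deviations from the group means correlated from -0.07 to 0.16. Of these, 2 were above 0.1 (0.157 and 0.112), and they are the only pairs between plastic day 21 and plastic day 3. The deviations of the 2 plastic day 21 libraries mirror each other, so these 2 values are not independent. Groups this small, without pairs of unlike number beside them, cannot exclude that replicate numbers pair the libraries. With the replicate block, members called were 9 at day 3 against day 0, 8 on plastic day 21 against day 0 and 5 on the media scaffold against plastic, as without it, and 78 genes were called between the scaffolds.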
